A study of Mus musculus with 178 samples.

Results

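The 6 genes described here encode receptors and regulators that guide effector lymphocytes: the chemokine receptors Cxcr3, Cxcr6 and Cx3cr1 and the transcription factors Tbx21 (the gene of T-bet), Eomes and Zeb2. They were chosen by their symbols and are 6 of the 55450 genes in the count table. All 6 passed the filter on low counts, which kept 13688 genes over the 8 groups of libraries. RNA came from the whole blood of 45 C57BL/6J mice that carried orthotopic tumors of 4MOSC1, a carcinogen-induced mouse oral squamous carcinoma line, in the tongue or the buccal mucosa. Young mice of both sexes were used, and every mouse received the anti-PD-1 antibody RMP1-14, so that no untreated tumor-bearing mouse and no tumor-free mouse served as a control. Blood was taken on Day 4 (pre-treatment), Day 9 (early on-treatment), Day 17 (middle) and Day 24 (late). The study's texts differ on whether treatment began right after the bleed of Day 4 or a few days later. Responders and non-responders, classed by tumor size under RECIST criteria, contributed 15 and 29 libraries on Day 4, 15 and 30 on Day 9, 14 and 30 on Day 17, and 15 and 30 on Day 24, which makes 178 libraries.

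Chemokine receptors direct leukocytes out of the blood toward a source of ligand. CXCR3 binds CXCL9, CXCL10 and CXCL11, which are made in tissue under interferon-gamma, CXCR6 binds CXCL16, and CX3CR1 binds fractalkine (CX3CL1). T-bet and EOMES are related T-box factors that drive the cytotoxic program of CD8+ T cells and natural killer (NK) cells, and ZEB2 works with T-bet in terminal differentiation of effector cells. None of these genes is restricted to T cells in blood: NK cells express Tbx21, Eomes and Zeb2, and monocytes express Cx3cr1 and Zeb2.

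On the mouse genome build GRCm38, Cxcr3 lies on chromosome X (101731535 to 101734269, minus strand), Tbx21 on chromosome 11 (97098071 to 97115331, minus strand) and Zeb2 on chromosome 2 (44983632 to 45117395, minus strand). The other members share chromosome 9, with Eomes at 118478212 to 118486132 (plus strand), Cx3cr1 at 119901616 to 120069879 (minus strand) and Cxcr6 at 123806475 to 123811760 (plus strand). Bases before the transcription start are shown for Cxcr6, whose level differed most between responders and non-responders, and for Tbx21 and Eomes, which declined together. Each run holds the 250 bases before a RefSeq start on GRCm38.p6, 5′ to 3′ on the gene's strand. Capitals mark matches to the motifs searched on both strands, the RUNX core TGTGGT in Cxcr6 and the E-box CAGGTG of ZEB factors in Tbx21.
Cxcr6, chr9:123806227-123806476: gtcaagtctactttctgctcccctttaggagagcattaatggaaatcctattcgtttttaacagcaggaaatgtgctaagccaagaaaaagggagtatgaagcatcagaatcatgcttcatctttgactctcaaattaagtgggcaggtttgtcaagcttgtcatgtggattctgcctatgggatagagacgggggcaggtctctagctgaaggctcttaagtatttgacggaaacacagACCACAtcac
Tbx21, chr11:97115332-97115581: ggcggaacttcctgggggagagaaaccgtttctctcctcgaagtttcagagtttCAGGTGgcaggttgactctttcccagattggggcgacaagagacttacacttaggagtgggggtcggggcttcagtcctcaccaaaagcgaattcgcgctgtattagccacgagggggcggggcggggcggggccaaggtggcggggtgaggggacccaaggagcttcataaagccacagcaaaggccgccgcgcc
Eomes, chr9:118477939-118478188: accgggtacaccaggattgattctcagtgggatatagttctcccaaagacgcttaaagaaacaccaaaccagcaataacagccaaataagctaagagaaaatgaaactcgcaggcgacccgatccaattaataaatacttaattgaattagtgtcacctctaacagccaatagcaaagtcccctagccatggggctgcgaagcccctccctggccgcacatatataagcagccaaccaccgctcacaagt

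The window of Cxcr6 has a GC content of 43.6% and 3 CpG dinucleotides, and that of Tbx21 60.8% and 16, beside a median of 52.4% and 6 over 32851 RefSeq promoters. The RUNX core lies in 3 of the 9 promoters of the members (Cxcr3, Cxcr6 and Cx3cr1, the 3 receptors) and in 14% of all promoters. Its match ends 5 bases before the start of Cxcr6 and 49 bases before that of Cx3cr1. The E-box lies in 2 of the 9 (Cxcr3 and Tbx21) and in 17.2% of all. The T-box core GGTGTG lies in 3 of the 9, all of Zeb2 and 2 of them overlapping windows with the same match, and in 16.3% of all, and its longer form GGTGTGA, which contains the core, in 0 of the 9 and in 3.33% of all. In Cxcr3 the E-box (116 to 111 bases before the start) and the RUNX core (110 to 105 bases before it) are adjacent, shown here with 10 flanking bases on each side.
Cxcr3, E-box: taagtgtattCACCTGaccacaggcg
Cxcr3, RUNX core: tattcacctgACCACAggcgtggcag
Cx3cr1, RUNX core: aagatagggtACCACAcaggaaacca
A match says only that the letters occur in the window. The motif list was settled after matches had been seen, and a further short motif was tried and dropped.

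Total counts per library ranged from 26058958 to 82208665, and haemoglobin genes took 68.7% to 88.0% of them, which left 4535321 to 22174636 counts of other genes. Median counts per library were 87.5 for Cxcr3, 86 for Cxcr6, 121 for Tbx21, 138 for Eomes, 475 for Cx3cr1 and 970 for Zeb2, and no library was at 0 for any member. The Day 24 library of non-responder 29 (NR29) stood apart, with a TMM scaling factor of 0.0848 beside 0.266 in the next lowest library and with 2 to 73 counts of the members. The Day 17 library of non-responder 24 (NR24) is labelled as a responder, whereas the other 3 libraries of that mouse are labelled as non-responder, and the library was kept with the non-responders. Ear tags in the labels have 3 or 4 digits, and 11 of the 15 responders but 7 of the 30 non-responders have 4 digits. This tag series may mark a batch, and its values are given beside several results. Mice are numbered within each response group.

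Levels between genes were compared on the TPM scale, which corrects for transcript length. Over all 178 libraries the median TPM was 1.23 for Zeb2, 1.09 for Cx3cr1, 0.46 for Cxcr3, 0.435 for Tbx21, 0.41 for Cxcr6 and 0.335 for Eomes. Cx3cr1 was above Cxcr3, the next in the order, in 178 of 178 libraries. Neighbours in the rest of the order were close, with Zeb2 above Cx3cr1 in 113 libraries, Cxcr3 above Tbx21 in 100, and Tbx21 above Cxcr6 in 93. Cxcr6 was above Eomes in 138 libraries. Some counts of overlapping genes sit beside those of Zeb2, since Zeb2os, on the opposite strand, held 13.2% as many counts as Zeb2, and whether counting used the strand is not given in the sources used here. The other overlapping genes held at most 1.5% as many counts as Cx3cr1 and 0.142% as many as Eomes.

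**Figure D1:**
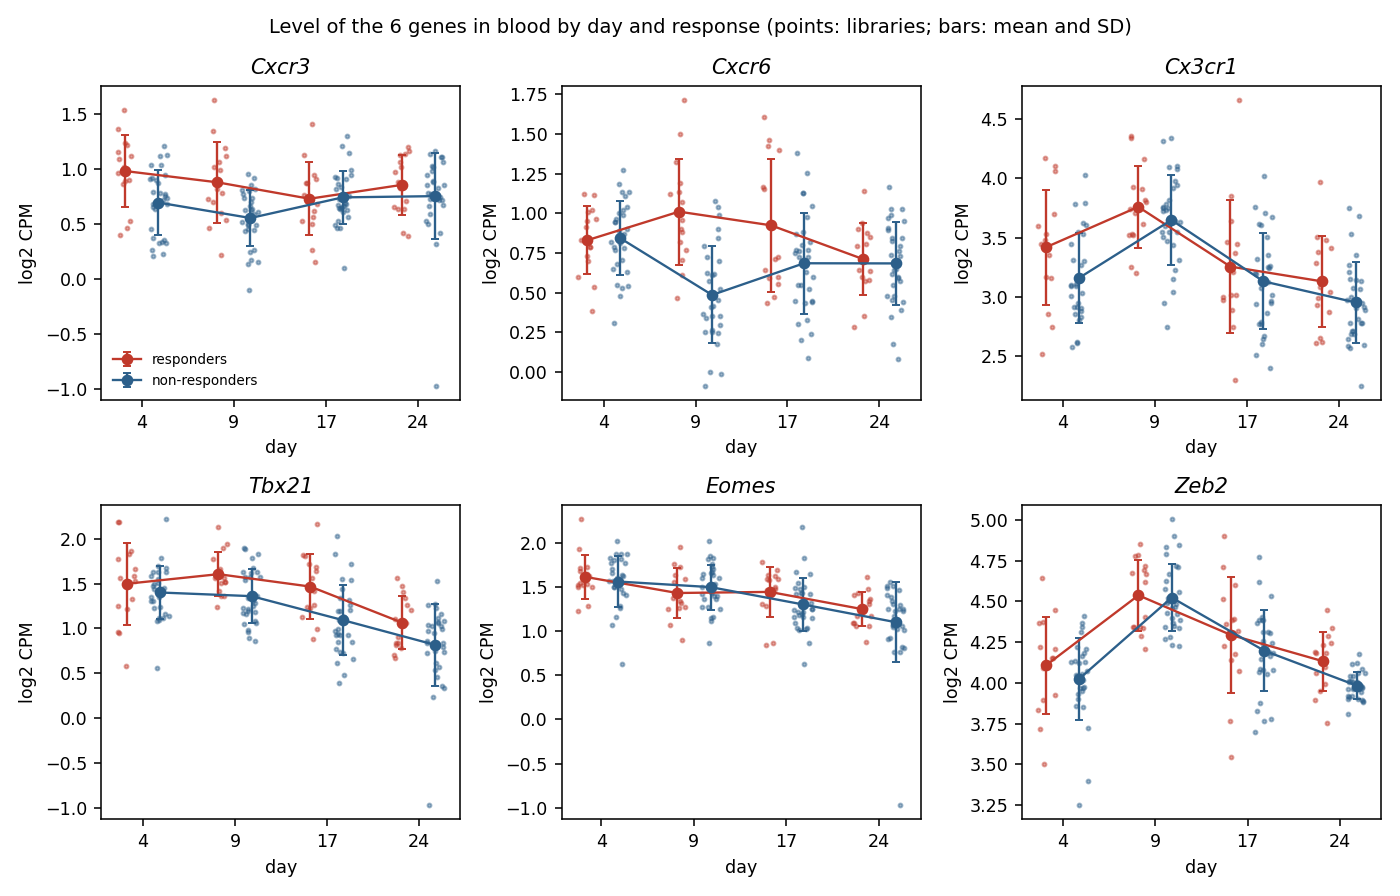
Level of each gene in log2 CPM (TMM-scaled counts relative to library size) by day, with 1 point per library and the mean and SD of responders (red) and non-responders (blue). Cxcr6 on Day 9 was higher in responders, with overlap, Zeb2 and Cx3cr1 were highest on Day 9 in both response groups, and Tbx21 and Eomes were lowest on Day 24, where the single low point in several panels is NR29.

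The first comparison asked whether responders and non-responders differed on each day. Cxcr6 on Day 9 showed the largest difference among the members, and Cxcr3 was higher in responders on Days 4 and 9, each by less than 1.5-fold. A call needed a difference of 1.5-fold or more together with a Benjamini-Hochberg adjusted p that did not exceed 0.05 in edgeR's quasi-likelihood test. None of the 6 met both on any day, beside 4.21% of 12620 genes tested on Day 4, 3.65% of 12608 on Day 9, 0.264% of 12520 on Day 17 and 0.297% of 12469 on Day 24. DESeq2 also called 0 members on every day. With limma on log2(TPM + 0.1), a scale that keeps haemoglobin in the total, 2 members passed on Day 4 and 1 on Day 9, all lower in responders. In edgeR without adjustment 2, 3, 2 and 1 members had p under 0.05 on Days 4, 9, 17 and 24. The share of all genes at that level is not given, here or for most unadjusted counts below, so these counts are a description. By adjusted p alone, 1 member passed on Day 4, 2 on Day 9, 0 on Day 17 and 1 on Day 24, all higher in responders, beside 6.4%, 9.43%, 0.799% and 3.41% of genes that passed in that direction. The median difference over the 6 members was 0.12, 0.17, 0.16 and 0.12 on the log2 scale, and that over all genes lay between -0.02 and 0.01.

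**Figure D2:**
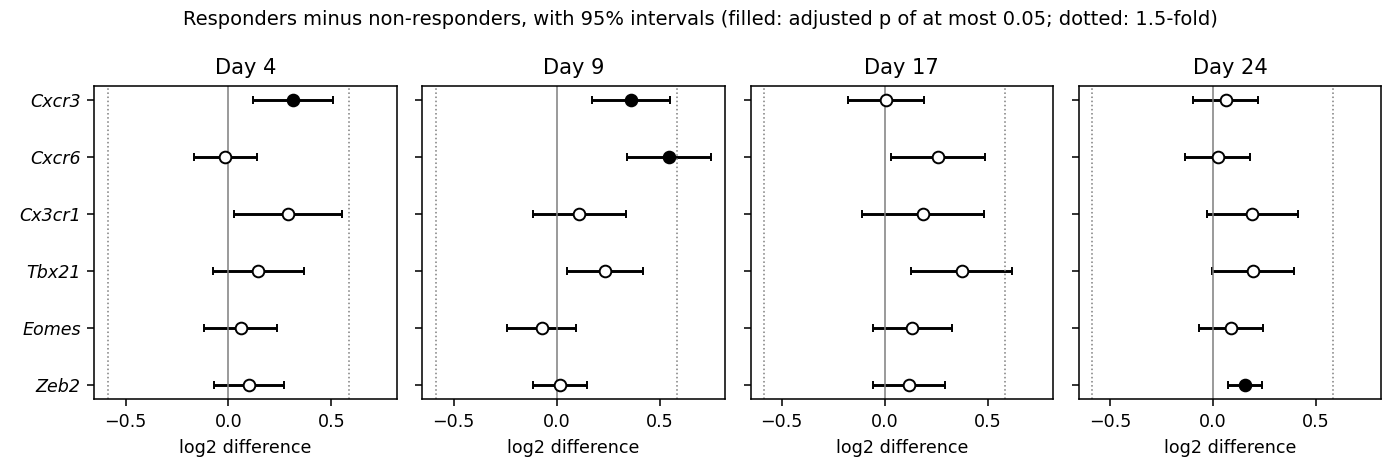
Difference in log2 level, responders minus non-responders, for each gene (rows) and day (panels), with 95% intervals from edgeR and dotted lines at 1.5-fold. Filled points, with an adjusted p of at most 0.05, are Cxcr3 on Days 4 and 9, Cxcr6 on Day 9 and Zeb2 on Day 24.

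Cxcr6, which marks effector and tissue-homing CD8+ T cells and some helper and innate T cells, had similar log2 CPM in both groups before treatment. On Day 4 the lowest, median and highest values were 0.38, 0.83 and 1.12 in responders and 0.31, 0.87 and 1.27 in non-responders, a difference of -0.02 ± 0.08 on the log2 scale (SE, here and for all fitted values unless SD is given). On Day 9 they were 0.47, 0.96 and 1.71 in responders and 0.43 at the median of non-responders, with -0.09 as their lowest and 1.08 as their highest value. The groups overlapped, but all 15 responders lay above the median of the non-responders, 6 lay above the highest non-responder, and 16 of the 30 non-responders lay below the lowest responder. The difference was 0.55 ± 0.10 (95% interval 0.34 to 0.75, 1.46-fold, adjusted p = 7.78e-05 by edgeR). DESeq2 gave 0.55 with an adjusted p of 5.58e-06, and leaving out any mouse kept the adjusted p under 0.05.

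Part of this difference went with the tag series. On Day 9 the median log2 CPM of Cxcr6 was 1.12 in 11 responders and 0.62 in 7 non-responders with 4-digit tags, and 0.73 in 4 responders and 0.41 in 23 non-responders with 3-digit tags. Responders were higher in both series, by 0.49 ± 0.17 (adjusted p = 0.317 by edgeR) with 4 digits and by 0.25 ± 0.14 (adjusted p = 0.501) with 3 digits. With the series as a covariate over all mice the difference was 0.38 ± 0.11 (adjusted p = 0.0203). On Day 17 the series separated the libraries more than response did, since the 4-digit medians were 1.16 in responders and 1.13 in non-responders and the 3-digit medians 0.53 and 0.60. The Day 17 difference of 0.26 ± 0.11 (adjusted p = 0.183) was 0.01 ± 0.10 with the series as a covariate. On Day 24 the medians of all responders and all non-responders were 0.71 and 0.69, with a difference of 0.02 ± 0.08.

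Red cell markers also differed on Day 9, when all 5 on the list (the globin genes Hba-a1, Hba-a2, Hbb-bs and Hbb-bt, and the haem synthesis gene Alas2) were higher in responders, beside 9.43% of all genes, with a median of 0.81. Their summed CPM ran from 541223 to 1917750 in responders and from 308293 to 1183420 in non-responders, and none was at 0. Of the 5 platelet markers, Gp9, Itga2b and Gp1bb were higher in responders by adjusted p, with a summed CPM of 224 to 738 against 216 to 625. None of 8 T cell markers, 2 CD8 markers, 6 NK markers, 6 classical and 6 non-classical monocyte markers passed on Day 9 by edgeR, and 0 had an unadjusted p under 0.05. T cell markers (Cd3d, Cd3e, Cd3g, Trac, Cd2, Cd5, Lat and Cd28) summed to between 58.0 and 89.9 CPM in responders and between 61.9 and 91.4 in non-responders, with a median difference of 0.01 over the list. Removing haemoglobin genes before scaling left the Cxcr6 difference at 0.55 (adjusted p = 6.31e-05 by edgeR). TMM scaling already trims the most abundant genes, so this removal could move the scale little. The part of red cell or platelet RNA in the Cxcr6 difference was not tested. In bulk RNA, fewer cells of a type and less RNA per cell cannot be told apart, here and in all results that follow.

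Cxcr3, a receptor of interferon-induced chemokines on type 1 effector cells, had lowest, median and highest log2 CPM on Day 4 of 0.40, 1.01 and 1.54 in responders and 0.21, 0.74 and 1.21 in non-responders. On Day 9 the values were 0.22, 0.82 and 1.63 against -0.10, 0.60 and 0.96. The groups overlapped on both days, with 12 of 15 responders above the non-responder median each time and 7 above the highest non-responder on Day 9. The difference was 0.31 ± 0.10 on Day 4 (adjusted p = 0.0342 by edgeR) and 0.36 ± 0.09 on Day 9 (adjusted p = 0.00462). The Day 4 difference was close to the threshold, since leaving out any of 6 responders (R2, R3, R9, R10, R11 or R14) raised the adjusted p above 0.05, up to 0.0943. Within the tag series it was 0.31 with 4 digits and 0.23 with 3 digits on Day 4, and 0.31 and 0.15 on Day 9. None of those 4 values passed (adjusted p of 0.199 to 0.773), and with the series as a covariate the adjusted p was 0.0717 on Day 4 and 0.178 on Day 9. On Days 17 and 24 the differences were 0.01 ± 0.09 and 0.06 ± 0.08. Myeloid markers also differed on Day 4, when 3 of 6 neutrophil markers (S100a8, S100a9 and Cxcr2) and 2 of 6 classical monocyte markers (Ly6c2 and Fn1) were higher in responders by adjusted p, beside 6.4% of all genes. Their summed CPM lay between 174 and 521 against 125 and 331 for neutrophils and between 71.0 and 221 against 70.0 and 161 for monocytes, with none at 0. Red cell markers were higher on Day 4 too, with 2 of 5 (Alas2 and Hbb-bt) past the adjusted p, 5 of 5 at an unadjusted p under 0.05, a median difference of 0.98 and a summed CPM of 457151 to 3353950 against 282739 to 1776390. The part of these cells in the Cxcr3 difference was not tested.

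Cx3cr1, the fractalkine receptor of cytotoxic lymphocytes and patrolling monocytes, had medians of 3.45 in responders and 3.10 in non-responders on Day 4 and 3.74 and 3.68 on Day 9. Its differences of 0.29 ± 0.13, 0.11 ± 0.11, 0.19 ± 0.15 and 0.19 ± 0.11 on Days 4, 9, 17 and 24 did not pass (adjusted p of 0.187 to 0.602 by edgeR). The 95% intervals reached up to 0.55 on Day 4 and 0.48 on Day 17. The highest value of all libraries was that of responder 11 on Day 17 (4.66), and the same group also held a value of 2.30 in responder 1.

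Tbx21 had higher medians in responders on every day, at 1.56 against 1.43, 1.56 against 1.29, 1.49 against 1.04 and 1.06 against 0.90. On Day 17 its lowest, median and highest values were 0.88, 1.49 and 2.16 in responders and 0.40, 1.04 and 2.03 in non-responders, so that the groups overlapped with 12 of 14 responders above the non-responder median. That was its largest difference, 0.37 ± 0.12 (p = 0.00342, adjusted p = 0.0733 by edgeR), and it was 0.16 ± 0.12 with the tag series as a covariate. Leaving out responder 2, NR27 or NR28 brought its adjusted p below 0.05 (lowest 0.0384). On Day 9 the difference was 0.24 ± 0.09 (adjusted p = 0.0832), with 14 of 15 responders above the non-responder median, and its adjusted p was also below 0.05 when responder 2, NR22 or NR25 was left out (lowest 0.0434). Eomes, its relative, differed by 0.06 ± 0.09, -0.07 ± 0.08, 0.13 ± 0.10 and 0.09 ± 0.08 on Days 4, 9, 17 and 24, with adjusted p of 0.425 or above.

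Zeb2, a zinc finger repressor used by terminal effector cells and by myeloid cells, varied little on Day 24, when the lowest, median and highest values were 3.75, 4.18 and 4.45 in responders and 3.81, 3.97 and 4.18 in non-responders. The groups overlapped, with 8 of 15 responders above the highest non-responder and 1 below the lowest. The SD of the non-responders was 0.08 on that day and 0.21 to 0.25 on the others. The difference was 0.16 ± 0.04 (1.11-fold, adjusted p = 0.0132 by edgeR) and 0.17 (adjusted p = 0.00299) without NR29. Within the tag series it was 0.14 (adjusted p = 0.38) with 4 digits and 0.03 (adjusted p = 0.871) with 3 digits. On Days 4, 9 and 17 Zeb2 differed by 0.10 ± 0.08, 0.02 ± 0.07 and 0.12 ± 0.09.

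A scale that keeps haemoglobin in the total turned the direction of most of these differences. On log2(TPM + 0.1), all genes together had a median difference between -0.63 and -0.11 over the 4 days, and that on Day 9 was -0.59. On that scale 7 of 24 member values had the same sign as on the TMM-scaled counts, and 23 of 24 had it once the median gene was taken off. On log2(TPM + 1) these counts were 8 and 18 of 24. Cxcr6 on Day 9 was -0.14 on the TPM scale and 0.45 relative to the median gene. The differences above are on a scale set by the bulk of genes, and the direction of most does not hold on a scale that keeps haemoglobin in the total.

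The second comparison followed the members over time within each response group. Zeb2 rose at the early on-treatment time point in both groups, Cx3cr1 rose and Cxcr6 fell in non-responders, and Tbx21 and Eomes fell by Day 24 in both groups. In responders 1 of 6 members passed on Day 9, 0 on Day 17 (2 at an unadjusted p under 0.05, 0 by DESeq2) and 2 on Day 24, beside 27.7%, 25.6% and 17.4% of all genes tested. In non-responders 3 of 6 passed on each of Days 9, 17 and 24, beside 50.8%, 46.1% and 48.7% of all genes. In non-responders the members thus passed about as often as genes at large. Limma on log2(TPM + 0.1) keeps haemoglobin in the total. With it, 0 members passed on Day 9 in either group or on Day 24 in responders. In the same limma fits all 6 members passed as lower by Day 24 in non-responders, among them Cxcr3, which had not passed by edgeR. The median change of all genes on that scale ran from -0.35 to 0.18 over the changes compared. The share of all genes that passed in those fits is not given, so the 6 calls cannot be read as particular to the members. The calls on Days 9 and 24 named here kept their direction on that scale.

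**Figure D3:**
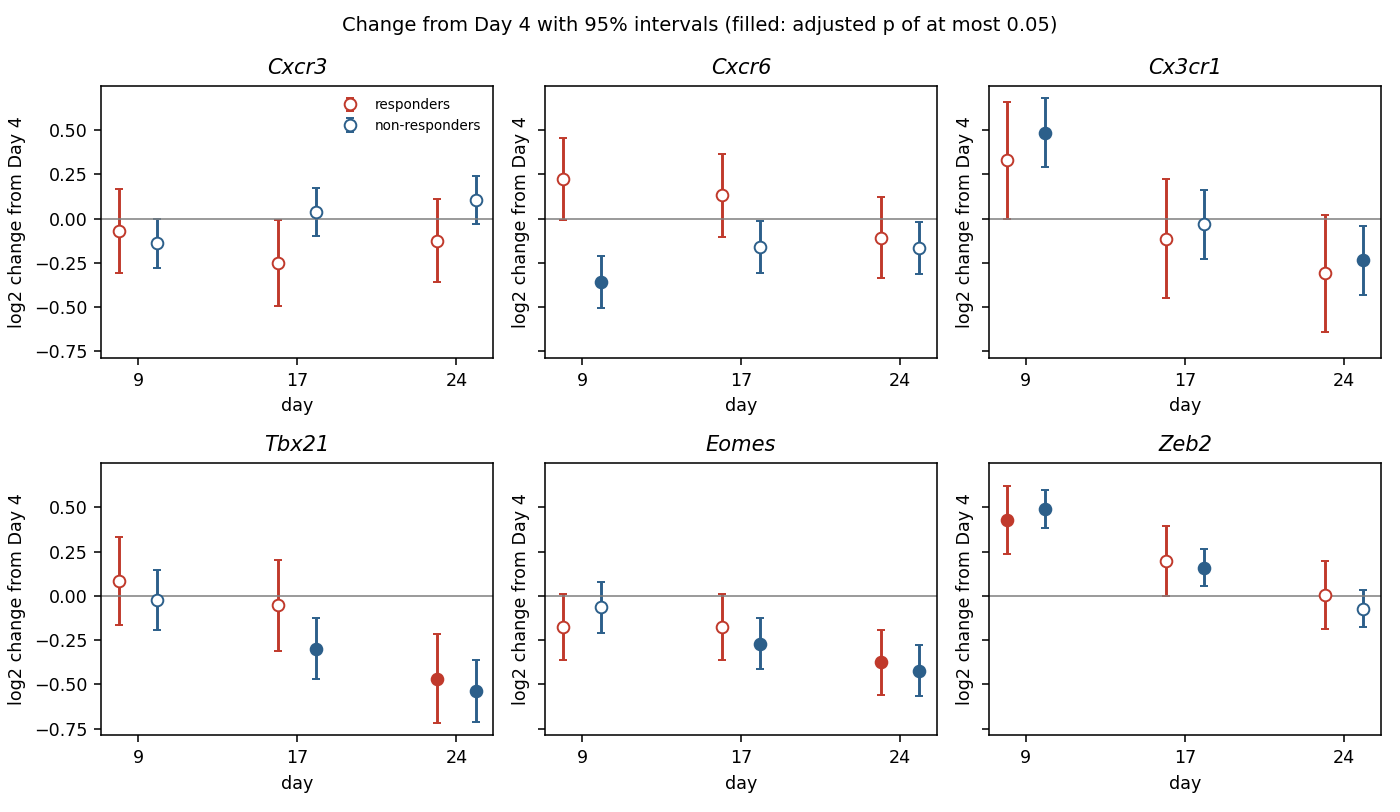
Change from Day 4 in log2 level with 95% intervals from edgeR, for responders (red) and non-responders (blue) on Days 9, 17 and 24. Filled points have an adjusted p of at most 0.05. Zeb2 was raised on Day 9 in both groups, Tbx21 and Eomes were lowered on Day 24 in both, and the intervals of Cxcr6 on Day 9 lay apart.

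Zeb2 had a median log2 CPM of 4.15 on Day 4, 4.62 on Day 9, 4.34 on Day 17 and 4.18 on Day 24 in responders, and of 4.05, 4.49, 4.21 and 3.97 in non-responders. Both groups peaked on Day 9 and were back near the first value by Day 24. From Day 4 to Day 9 it rose by 0.43 ± 0.10 in responders (adjusted p = 0.00049 by edgeR) and was higher in 14 of 15 of them. The rise in non-responders was 0.49 ± 0.05 (adjusted p = 6.37e-14), with 28 of 29 mice higher. In non-responders it was still up by 0.16 ± 0.05 on Day 17 (adjusted p = 0.0106, and 0.057 with all genes of at least 1 count tested). On the TPM scale that value took the opposite sign, at -0.27 on log2(TPM + 0.1) and -0.18 on log2(TPM + 1). It then fell by 0.33 from Day 9 to Day 17 (adjusted p = 2.49e-07) and by 0.23 from Day 17 to Day 24 (adjusted p = 0.000959) in that group.

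Cx3cr1 followed a like course, with medians of 3.45, 3.74, 3.11 and 3.08 in responders and 3.10, 3.68, 3.13 and 2.91 in non-responders. In non-responders it rose by 0.48 ± 0.10 on Day 9 (adjusted p = 1.43e-05 by edgeR), in 23 of 29 mice, and fell by 0.52 from Day 9 to Day 17 (adjusted p = 1.25e-05), in 27 of 30 mice. In responders the Day 9 change was 0.33 ± 0.16 (adjusted p = 0.131), up in 10 of 15 mice. The later change from Day 9 to Day 17 was -0.44 ± 0.17 (adjusted p = 0.108), lower in 12 of 14 mice, and -0.49 (adjusted p = 0.0315) with the mouse as a block or passed without responder 11 (adjusted p = 0.0255). On Day 24 it lay below Day 4 by 0.24 in non-responders (adjusted p = 0.0405), a call that was lost when any of 17 mice was left out and by DESeq2 (adjusted p = 0.0613). The mean within-mouse change was -0.30 with 3-digit tags (15 of 22 lower) and 0.19 with 4-digit tags (4 of 7 higher).

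Markers of several other blood cells moved on the same days, beside 27.7% of all genes that passed on Day 9 in responders and 50.8% in non-responders. Of 6 classical monocyte markers (Ly6c2, Ccr2, Vcan, F13a1, Chil3 and Fn1), 5 rose on Day 9 in responders and 6 in non-responders, with median changes of 1.08 and 1.42. Their summed CPM was 71.0 to 221 on Day 4 and 150 to 401 on Day 9 in responders, and 70.0 to 161 and 160 to 444 in non-responders. Of 6 non-classical markers, 0 passed on Day 9 in responders (1 at an unadjusted p under 0.05) and 3 rose in non-responders, and their summed CPM lay between 40.9 and 78.1 on Day 4 and between 49.0 and 96.1 on Day 9 in responders, and between 30.9 and 105 and between 40.8 and 81.5 in non-responders. Of 6 neutrophil markers, 2 rose on Day 9 in responders and 5 in non-responders, with median summed CPM of 274 and 430 on Days 4 and 9 in responders and 224 and 390 in non-responders. Of 6 B cell markers, 4 fell in responders (520 to 405) and 6 in non-responders (552 to 437). None of these markers was at 0 in any group. Their part in the changes of Zeb2 and Cx3cr1 was not tested.

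Tbx21 had medians of 1.56, 1.56, 1.49 and 1.06 on Days 4, 9, 17 and 24 in responders and of 1.43, 1.29, 1.04 and 0.90 in non-responders. The lowest median of each group was that of Day 24. By Day 24 it fell by 0.47 ± 0.13 in responders (adjusted p = 0.0081 by edgeR), 12 of 15 of which were lower. It fell by 0.54 ± 0.09 in non-responders (adjusted p = 3.43e-07), and 29 of 29 were lower. In non-responders it had already fallen by 0.30 ± 0.09 on Day 17 (adjusted p = 0.00296), while the responder change of -0.05 ± 0.13 did not pass (adjusted p = 0.793). The non-responder fall to Day 17 was seen in the 3-digit tag series, with a mean within-mouse change of -0.44 (19 of 22 lower), against 0.19 in the 4-digit series (4 of 7 higher). The difference between these Day 17 changes, 0.23 ± 0.15, did not pass either (adjusted p = 0.632). From Day 17 to Day 24 it fell by 0.41 in responders (adjusted p = 0.0163), with 13 of 14 lower, and by 0.24 in the other group (adjusted p = 0.0426), a call lost when any of 13 mice or the Day 17 library of NR24 (adjusted p = 0.0543) was left out.

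Eomes had medians of 1.54, 1.37, 1.54 and 1.26 in responders on the same days, and in non-responders of 1.57 on Day 4 and 1.24 on Day 17. By Day 24 it fell by 0.38 ± 0.09 in responders (adjusted p = 0.004 by edgeR), 14 of 15 of which were lower. The fall in non-responders was 0.42 ± 0.07 (adjusted p = 1.18e-06), and 26 of 29 were lower. On Day 17 it had fallen by 0.27 ± 0.07 in non-responders (adjusted p = 0.00128) and stood at -0.18 ± 0.09 in responders (adjusted p = 0.163). That fall, too, was seen with 3-digit tags (-0.36, 19 of 22 lower) and not with 4-digit tags (0.08, 4 of 7 higher). By Day 24 both series were lower in non-responders, with 29 of 29 mice lower for Tbx21 and, for Eomes, 20 of 22 and 6 of 7. NK cell markers declined with both T-box genes. Of 6 markers (Ncr1, Klrb1c, Klre1, Klri2, Klrb1f and Klrc2), 5 fell by Day 24 in each group, beside 17.4% of all genes that passed in responders and 48.7% in non-responders, with median changes of -0.57 in responders and -0.48 in non-responders. Their summed CPM lay between 10.6 and 30.9 on Day 4 and between 8.76 and 16.2 on Day 24 in responders, and between 10.8 and 28.5 and between 6.18 and 19.3 in non-responders, with none at 0. Without the NR29 library the non-responder changes were -0.53 for Tbx21 (adjusted p = 3.87e-07) and -0.41 for Eomes (adjusted p = 1.11e-06). T cell markers were lower by Day 24 too. Their mean log2 CPM was 3.75 on Day 4 and 3.50 on Day 24 in responders, and 3.76 and 3.51 in non-responders. That of CD8 markers went from 3.89 to 3.64 in responders and from 3.90 to 3.69 in non-responders. The part of NK cells or T cells in the fall of Tbx21 and Eomes was not tested.

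On Day 9 Cxcr6 fell in non-responders and did not pass in responders. In non-responders it fell by 0.36 ± 0.07 (adjusted p = 2.15e-05 by edgeR), in 26 of 29 mice, and in responders the change was 0.22 ± 0.12 (adjusted p = 0.143), up in 9 of 15 mice. The within-mouse values of responders ran from -0.22 to 1.12 with a median of 0.00, so that some responders were well above their first value and others near it. The difference between the changes was 0.57 ± 0.13 (95% interval 0.30 to 0.83, p = 3.57e-05, adjusted p = 0.163 over 13688 genes). With the mouse as a block it was 0.56 ± 0.12 (adjusted p = 0.0439). In mice with 3-digit tags alone the difference was 0.44 ± 0.20 (adjusted p = 0.669) and in those with 4-digit tags alone 0.38 ± 0.20 (adjusted p = 0.765), fits chosen after seeing the data. Among 3-digit tags 22 of 22 non-responders and 2 of 4 responders were lower on Day 9, and among 4-digit tags 4 of 7 non-responders and 4 of 11 responders.

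**Figure D4:**
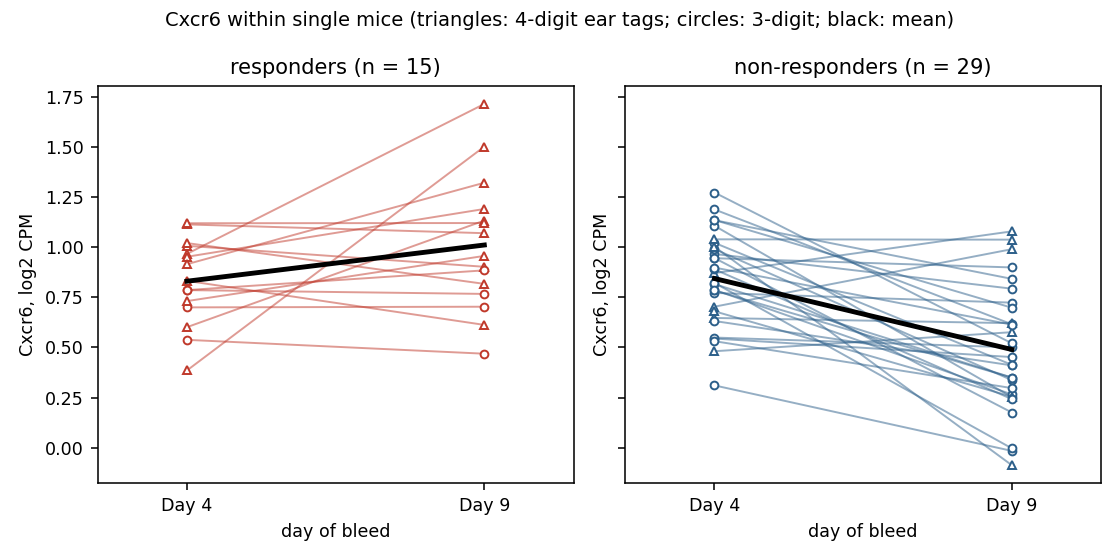
Cxcr6 in log2 CPM on Days 4 and 9, with 1 line per mouse, triangles for 4-digit and circles for 3-digit ear tags, and the mean in black. The level was lower on Day 9 in 26 of 29 non-responders and higher in 9 of 15 responders.

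None of the 6 members had a difference between the changes that passed without the mouse as a block. On Day 9, 0% of 13688 genes passed this test in edgeR (719 at an unadjusted p under 0.05, and 0 passed by DESeq2), on Day 17 0.351% and on Day 24 3.76%. At an unadjusted p under 0.05 the members counted 1 on Day 9 (Cxcr6), 2 on Day 17 (Cxcr3, -0.30 ± 0.13, and Cxcr6, 0.28 ± 0.14) and 0 on Day 24. Cxcr3 itself did not pass from Day 4 to any later day in either group, with changes between -0.25 and 0.11. From Day 9 to Day 17 all 6 members passed in non-responders, 4 lower and 2 higher, beside 26.5% of all genes, and 0 in responders (2 at an unadjusted p under 0.05, 0 by DESeq2), beside 5.53%. The members that were higher, Cxcr6 (0.20, adjusted p = 0.0405) and Cxcr3 (0.18, adjusted p = 0.0449), lost that call when any of 16 and 18 mice was left out, and on log2(TPM + 0.1) they took the opposite sign (-0.12 and -0.13). From Day 17 to Day 24, 1 of 6 passed in responders and 2 in non-responders, beside 18.9% and 21.2%.

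All 8 T cell markers fell on Day 9 in both groups, with median changes of -0.51 and -0.55. This stood beside 27.7% of all genes that passed in either direction in responders and 50.8% in non-responders. The members were therefore also read relative to the T cell markers. The measure was the log2 CPM of the gene minus the mean log2 CPM of the 8 markers, compared by permutation of mice and adjusted over the 24 comparisons of responders with non-responders. Of these, 3 passed: Cxcr6 on Day 9 (-2.21 ± 0.35 in responders and -2.72 ± 0.26 in non-responders, SD, a difference of 0.51, adjusted p = 0.00024, from the smallest p that 100000 permutations can give), Cxcr3 on Day 9 (0.31, adjusted p = 0.0137) and Cxcr3 on Day 4 (0.30, adjusted p = 0.0334). With Cd3d, Cd3e and Cd3g alone as the reference, Cxcr3 on Day 4 no longer passed (0.29, adjusted p = 0.0682). The tag series was not part of this comparison. With the series as a covariate in edgeR, Cxcr3 did not pass on either day and Cxcr6 on Day 9 did. Without the NR29 library Zeb2 on Day 24 passed as well (0.19, adjusted p = 0.0328, against 0.17 and 0.113 with it). Tbx21 was higher in responders by 0.23, 0.30 and 0.27 on Days 9, 17 and 24, with adjusted p of 0.113 to 0.155. On log2(TPM + 0.1) 5 comparisons passed, among them Tbx21 on Day 9 (0.30, adjusted p = 0.00504) and Eomes on Day 4 (0.22, adjusted p = 0.0156). The T cell markers themselves did not pass between responders and non-responders on any day (0 of 8 by edgeR, and 0, 0, 3 and 0 at an unadjusted p under 0.05).

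Within mice the reference itself fell, so that a gene with no change in CPM lies above its first value by as much as the markers fell, and these changes are given as a description with no test. On Day 9 Zeb2 lay 0.97 ± 0.41 (SD) above its first value in responders and 1.06 ± 0.41 in non-responders. Cxcr6 lay 0.72 ± 0.35 above in responders and 0.21 ± 0.29 in non-responders, the latter less than the fall of the markers. The same was true in responders of Cxcr3 (0.43) and Eomes (0.35), and in non-responders of Cxcr3 (0.42), Eomes (0.51) and Tbx21 (0.53). By Day 24 Tbx21 was lower by 0.32 in non-responders relative to the markers, in 24 of 29 mice, and on log2(TPM + 0.1) its value was -0.07. Without NR29 on Day 24 it was -0.26. In responders Tbx21 stood at -0.17 ± 0.60 (SD) and was higher in 6 of 15 mice. Eomes stood at -0.11 in responders and at -0.21 in non-responders. Both measures are relative to T cell RNA, although NK cells and monocytes also carry these transcripts.

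The ligands, other receptors and other regulators of the same pathway were followed as lists. Of the 5 ligand genes, Cxcl9, Cxcl11 and Cx3cl1 were too low in blood to be tested within a response group, and Cxcl11 had no count in any library of 4 of the 8 groups. Cxcl16, the membrane-bound ligand of CXCR6 made by myeloid cells, rose on Day 9 by 2.63 ± 0.38 in responders (adjusted p = 1e-06 by edgeR) and by 2.22 ± 0.28 in non-responders (adjusted p = 1.72e-11). These folds were on low levels, since all 5 ligands together had a median of 0.344 CPM on Day 4 and 0.591 CPM on Day 9 in responders, and of 0.325 and 0.793 CPM in non-responders. It stayed up on Day 24 in responders, by 1.52 ± 0.40 (adjusted p = 0.00679). Cxcl10 rose in non-responders on Day 9 by 0.79 ± 0.19 (adjusted p = 0.000162) and lay below its first value on Day 24, at -0.58 ± 0.21 (adjusted p = 0.0153). No ligand differed between responders and non-responders on any day (0 passed by edgeR, and 1, on Day 17, at an unadjusted p under 0.05).

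Of 20 other homing receptors, 18 could be tested. On Day 9, 3 rose and 7 fell in responders, beside 27.7% of all genes that passed, and 4 rose and 7 fell in non-responders, beside 50.8%. The lymph node receptor Ccr7 fell by 0.51 ± 0.07 and 0.52 ± 0.05, the egress receptor S1pr1 by 0.42 ± 0.06 and 0.41 ± 0.04, and the follicle receptor Cxcr5 by 0.53 ± 0.09 and 0.49 ± 0.06 in responders and non-responders. Cxcr4, the receptor that retains leukocytes in bone marrow, rose by 0.48 ± 0.12 and 0.35 ± 0.08. Between responders and non-responders Itgb1 was higher by 0.27 on Day 9, by adjusted p alone, beside 9.43% of all genes. With the 1.5-fold rule 0 of 18 passed on any day by edgeR (3, 4, 8 and 7 at an unadjusted p under 0.05 on Days 4, 9, 17 and 24), beside 4.21%, 3.65%, 0.264% and 0.297% of all genes.

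Of 17 other regulators, 5 rose and 8 fell on Day 9 in responders, beside 27.7% of all genes, and 6 rose and 11 fell in non-responders, beside 50.8%. The naive and memory factors Foxo1 (-0.44 ± 0.07 and -0.42 ± 0.04) and Tcf7 (-0.42 ± 0.08 and -0.45 ± 0.05) fell in responders and non-responders. Prdm1, the gene of the effector and plasma cell factor BLIMP-1, rose by 0.60 ± 0.15 and 0.78 ± 0.09, and Hopx rose by 0.42 ± 0.10 and 0.35 ± 0.07. Bach2, which restrains effector differentiation, was the 1 regulator whose change to Day 24 differed between the groups, by 0.34 ± 0.10 (adjusted p = 0.0307 by edgeR, beside 3.76% of all genes).

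Genes that T-box factors are known to activate gave 5 of 11 higher in responders on Day 9 by adjusted p alone, beside 9.43% of all genes in that direction, and 0 past 1.5-fold. The 5 were Il18r1 (0.26 ± 0.08), Gzmb (0.25 ± 0.08), Klrg1 (0.36 ± 0.12), Ccl5 (0.28 ± 0.09) and Nkg7 (0.21 ± 0.07), which encode a cytokine receptor, a granule protease, an inhibitory receptor, a chemokine and a granule protein. Values by tag series are not given for the 5, so that response and series cannot be told apart in them. Ccl5 and Nkg7 were outside the rule for named genes and were added after their values were seen. Their median over the list was 0.15 beside -0.02 over all genes. By Day 24, 7 of 11 fell in responders, beside 17.4% of all genes that passed in either direction, and 6 fell and Il18r1 rose in non-responders, beside 48.7%. Prf1, the gene of perforin, fell by 0.70 ± 0.10 in responders and 0.73 ± 0.08 in non-responders, Nkg7 by 0.62 ± 0.08 and 0.52 ± 0.08, and Il2rb by 0.38 ± 0.08 and 0.46 ± 0.06. These genes are also expressed by NK cells, whose markers fell on the same day as given above.

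The last description asked which genes varied with each member between mice, after the 8 group means were taken off the log2 CPM. The values are Pearson correlations over 178 libraries, in which up to 4 libraries come from each mouse and all share the scaling. Tbx21 was most like Gzma (0.77), Prf1 (0.76) and Il2rb (0.71), and Eomes most like Klra4 (0.75), Prf1 (0.71) and Il2rb (0.69), of which Gzma and Prf1 encode cytotoxic granule proteins and Klra4 an NK cell receptor. Cx3cr1 was most like Csf1r (0.82), the receptor of a monocyte growth factor, Tnfrsf1b (0.82) and Cybb (0.81), and Zeb2 most like Ptprj (0.75), Ccdc88a (0.71) and Nav1 (0.68). Cxcr3 came closest to Tbx21 (0.59), Gimap7 (0.54) and Il2rb (0.53), and Cxcr6 to St13 (0.44), Stip1 (0.39) and Crim1 (0.38). Cxcr6 thus had the weakest partners of the 6. Without NR29 on Day 24 the closest gene was Ccl5 (0.51) for Cxcr3 and Il2rb (0.67) for Eomes, and it was unchanged for the other 4 members.

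**Figure D5:**
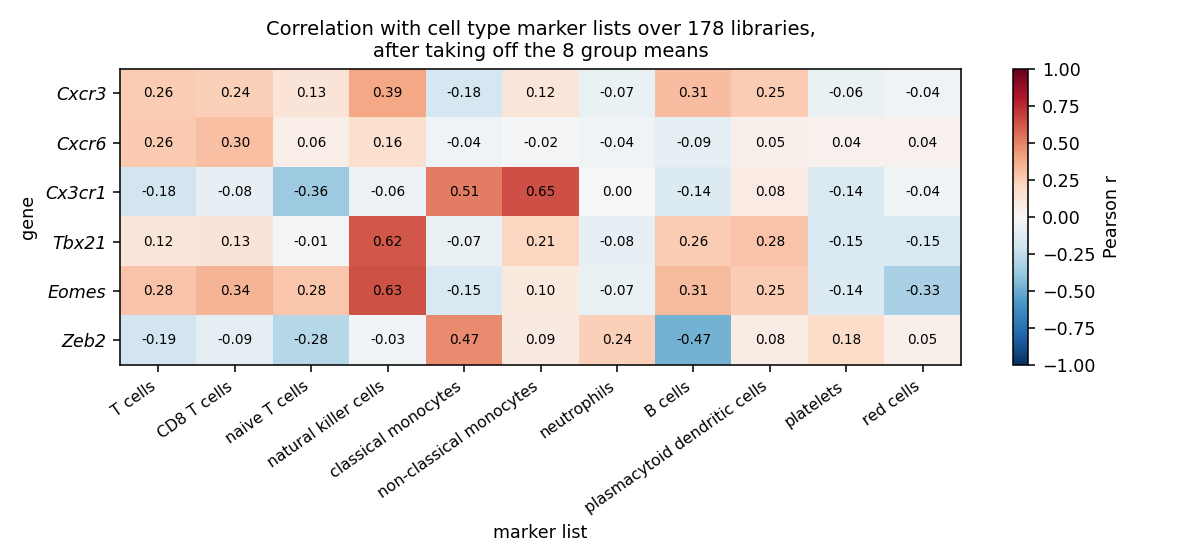
Pearson correlation of each gene (rows) with the mean of each cell type marker list (columns) over 178 libraries, in log2 CPM after the 8 group means were taken off. Tbx21 and Eomes followed NK cell markers, Cx3cr1 both monocyte lists, and Cxcr6 had its highest value, 0.30, with CD8 markers.

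Against marker lists of blood cell types the members differed in the list with the highest value, without a clean split by cell type. Tbx21 and Eomes correlated at 0.62 and 0.63 with NK cell markers and at 0.12 and 0.28 with T cell markers. Without NR29 on Day 24 these were 0.56 and 0.56 with NK cell markers and 0.033 and 0.19 with T cell markers. Cx3cr1 correlated at 0.65 with non-classical and 0.51 with classical monocyte markers and at -0.18 with T cell markers, and Zeb2 at 0.47 with classical monocyte markers, -0.19 with T cell markers and -0.47 with B cell markers (-0.58 without NR29 on Day 24). Cxcr3 reached 0.39 with NK markers and 0.26 with T cell markers (0.27 and 0.17 without that library), and Cxcr6 0.26 with T cell markers. With CD8 markers Eomes reached 0.34, Cxcr6 0.30 and Cxcr3 0.24. With B cell markers Cxcr3 and Eomes reached 0.31 each and Tbx21 0.26, above their values with T cell markers over all libraries. Tbx21 reached 0.28 with plasmacytoid dendritic cell markers. Between members the highest values were 0.64 for Tbx21 with Eomes, 0.59 for Cxcr3 with Tbx21 and 0.45 for Cx3cr1 with Zeb2. Over all 178 libraries, the highest positive value among the 11 marker lists was thus with NK cells for Tbx21, Eomes and Cxcr3. It was with monocytes for Cx3cr1 and Zeb2 and with CD8 T cells for Cxcr6, while Zeb2 had a negative value of like size with B cells.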

How the data were processed

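Poly(A) RNA of whole blood was sequenced by the authors with a SMARTer mRNA kit, and per the labels and the study's methods the reads were aligned to mm10 with STAR. The counting tool and the strand setting are not given in the sources used here. The deposited expected counts per gene (3.14% of values not whole) were rounded, and the authors' TPM values, made from raw counts with haemoglobin included, served for levels between genes and as an alternative. Counts were TMM-scaled, filtered with filterByExpr and tested with edgeR 4.0.16 (R 4.3.3) by quasi-likelihood within each day, within each response group, and over all libraries for the difference of the changes. Library was the unit, and p-values were Benjamini-Hochberg adjusted over all genes tested. Response calls needed an adjusted p of at most 0.05 and 1.5-fold, and other calls the adjusted p alone. Log2 CPM used a prior count of 2. DESeq2 1.42.0 and limma 3.58.1 were alternatives. Levels relative to T cell markers were compared between response groups by 100000 permutations with scipy 1.17.1 and numpy 2.4.6. The mouse, named by its ear tag, pairs libraries across days and was tried as a block. Named genes were the 6 members, up to 3 rising and 3 falling genes of a pathway list, taken by lowest p from those that passed in either response group, and the 3 genes most correlated with each member. Members and lists were chosen with earlier results of these data known. The statistical scripts were tested on simulated data. No library was left out of the main comparisons. Some genes of the lists are not reported here by name.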

Additional observations from a re-analysis of the deposited data

How the results depend on the processing

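The edgeR comparisons were repeated with DESeq2, with other filters on low counts, without haemoglobin genes, on the TPM scale and with each mouse left out. Where they applied, further alternatives were the tag series (response groups and differences of the changes), the mouse as a block (changes and their differences), both readings of NR24 (fits with Day 17) and NR29 left out (fits with Day 24). Cxcr6 on Day 9 kept its direction and an adjusted p under 0.05 with DESeq2, both filters, no haemoglobin genes, the tag series as a covariate and each mouse left out. Within each tag series it kept its direction without passing, and on the TPM scale its sign turned. Counts of members past the threshold changed as follows, and the cause was not tested except for the stricter filter. With that filter, the low counts of NR29 on Day 24 (2, 6, 2 and 2) took Cxcr3, Cxcr6, Tbx21 and Eomes out of the fits that hold this library, so that only Zeb2 and Cx3cr1 were tested there. Cxcr6, which passed in the main fit for non-responders Day 9 against Day 4, was thus not tested with that filter. With the adjusted p alone, 1 passed for responders against non-responders on Day 4 and responders against non-responders on Day 24, and 2 passed for responders against non-responders on Day 9. With limma on log2(TPM + 0.1), 2 passed for responders against non-responders on Day 4 and 1 on Day 9, all lower in responders. On that scale 0 passed for responders Day 9 against Day 4, responders Day 24 against Day 4, responders Day 24 against Day 17, non-responders Day 9 against Day 4 and non-responders Day 24 against Day 17. For non-responders Day 24 against Day 4, 6 passed, all lower on Day 24. Over the changes compared, the median of all genes ran from -0.35 to 0.18 on log2(TPM + 0.1) and from -0.16 to 0.07 on log2(TPM + 1). With a 1.5-fold threshold added, 0 passed for responders Day 9 against Day 4, responders Day 24 against Day 4, responders Day 24 against Day 17, non-responders Day 9 against Day 4, non-responders Day 17 against Day 4, non-responders Day 24 against Day 4, non-responders Day 17 against Day 9 and non-responders Day 24 against Day 17. With limma on log2(TPM + 1), 0 passed for responders Day 9 against Day 4, responders Day 24 against Day 4, responders Day 24 against Day 17 and non-responders Day 24 against Day 17, and 1 passed for non-responders Day 9 against Day 4, and 5 passed for non-responders Day 17 against Day 4, and 6 passed for non-responders Day 24 against Day 4. With the mouse as replicate block, 1 passed for responders Day 17 against Day 9 and the difference of the changes to Day 9. With at least 10 counts required in every library, 1 passed for non-responders Day 17 against Day 4, non-responders Day 24 against Day 4 and non-responders Day 24 against Day 17, and 2 passed for non-responders Day 17 against Day 9. With all genes of at least 1 count tested, 1 passed for non-responders Day 24 against Day 17. With the Day 17 library of NR24 as a responder, 1 passed for non-responders Day 24 against Day 17. With that library left out, 1 passed for non-responders Day 24 against Day 17. Relative to T cell markers on log2(TPM + 0.1), 5 of 24 comparisons of responders with non-responders passed. The block removed differences between mice. Libraries of 1 mouse shared an animal, and their deviations from the group means correlated at a mean of -0.0584 to 0.128 between days. The block changed no other call of a member.

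Member values that took the opposite sign are given here in log2 units, with changes between later days only where they had passed, and the cause was not tested. Responders minus non-responders with limma on log2(TPM + 0.1) on Day 4 gave Cxcr3 -0.40, Cx3cr1 -0.50, Tbx21 -0.56, Eomes -0.57 and Zeb2 -0.66. Day 9 gave Cxcr3 -0.29, Cxcr6 -0.14, Cx3cr1 -0.56, Tbx21 -0.39 and Zeb2 -0.55. Day 17 gave Cxcr3 -0.14, Cx3cr1 -0.032 and Eomes -0.011. Day 24 gave Cxcr3 -0.077, Cxcr6 -0.10, Eomes -0.051 and Zeb2 -0.0070. Responders minus non-responders with limma on log2(TPM + 1) on Day 4 gave Cxcr3 -0.15, Cx3cr1 -0.28, Tbx21 -0.21, Eomes -0.20 and Zeb2 -0.37. Day 9 gave Cxcr3 -0.097, Cxcr6 -0.044, Cx3cr1 -0.35, Tbx21 -0.16 and Zeb2 -0.35. Day 17 gave Cxcr3 -0.046 and Cx3cr1 -0.00056. Day 24 gave Cxcr3 -0.033, Cxcr6 -0.037, Eomes -0.017 and Zeb2 -0.0034. Responders minus non-responders with 4-digit tags alone on Day 4 gave Cxcr6 0.098. Day 9 gave Eomes 0.18 and Zeb2 -0.0028. Day 24 gave Cx3cr1 -0.022. Responders minus non-responders with 3-digit tags alone on Day 9 gave Cx3cr1 -0.12 and Zeb2 -0.13. Day 17 gave Cxcr3 -0.22, Cxcr6 -0.046, Eomes -0.083 and Zeb2 -0.21. Day 24 gave Cxcr3 -0.16, Cxcr6 -0.080, Cx3cr1 -0.083, Tbx21 -0.14 and Eomes -0.077. Responders minus non-responders with the tag series as a covariate on Day 9 gave Eomes 0.0081 and Zeb2 -0.058. Day 17 gave Cxcr3 -0.079 and Zeb2 -0.067. Day 24 gave Cxcr6 -0.032 and Cx3cr1 -0.044. Responders minus non-responders with all genes of at least 1 count tested on Day 17 gave Cxcr3 -0.0082. Changes over time with limma on log2(TPM + 0.1) for responders Day 17 against Day 4 were Cx3cr1 0.091, Tbx21 0.15 and Eomes 0.045. Responders Day 24 against Day 4 gave Cxcr3 0.037 and Cxcr6 0.037. Non-responders Day 17 against Day 4 gave Cxcr3 -0.29 and Zeb2 -0.27. Non-responders Day 24 against Day 4 gave Cxcr3 -0.29. Non-responders Day 17 against Day 9 gave Cxcr3 -0.13 and Cxcr6 -0.12. Changes over time with limma on log2(TPM + 1) for responders Day 17 against Day 4 were Cx3cr1 0.054, Tbx21 0.042 and Eomes 0.00021. Responders Day 24 against Day 4 gave Cxcr3 0.0079 and Cxcr6 0.0024. Non-responders Day 17 against Day 4 gave Cxcr3 -0.12 and Zeb2 -0.18. Non-responders Day 24 against Day 4 gave Cxcr3 -0.11. Non-responders Day 17 against Day 9 gave Cxcr3 -0.052 and Cxcr6 -0.045. Differences of the changes with 4-digit tags alone for Day 9 against Day 4 were Cxcr3 -0.0074. Day 17 against Day 4 gave Cxcr6 -0.060, Tbx21 -0.10, Eomes -0.15 and Zeb2 -0.00042. Day 24 against Day 4 gave Cxcr6 -0.089 and Eomes -0.048. Differences of the changes with 3-digit tags alone for Day 9 against Day 4 were Cxcr3 -0.070 and Tbx21 -0.14. Day 17 against Day 4 gave Eomes -0.13 and Zeb2 -0.24. Day 24 against Day 4 gave Tbx21 -0.33, Eomes -0.14 and Zeb2 -0.010. Differences of the changes with limma on log2(TPM + 0.1) for Day 9 against Day 4 were Zeb2 0.11. Day 17 against Day 4 gave Cxcr3 0.26 and Cx3cr1 0.47. Day 24 against Day 4 gave Cxcr3 0.33 and Cx3cr1 0.53. Differences of the changes with limma on log2(TPM + 1) for Day 9 against Day 4 were Zeb2 0.015. Day 17 against Day 4 gave Cxcr3 0.10 and Cx3cr1 0.28. Day 24 against Day 4 gave Cxcr3 0.12 and Cx3cr1 0.30. Relative to T cell markers, with Cd3d, Cd3e and Cd3g alone as the reference, values were Zeb2 -0.016 for the response groups on Day 9 and Cx3cr1 0.0068 for responders from Day 4 to Day 24. Relative to T cell markers, with log2(TPM + 0.1), values were Cxcr6 0.14 for the response groups on Day 4, Eomes 0.091 for the response groups on Day 9 and Eomes 0.038 for non-responders from Day 4 to Day 24. With each mouse left out in turn, Cxcr6 between response groups on Day 4 ran from -0.040 to 0.012 and Eomes between response groups on Day 4 ran from -0.0017 to 0.076. Zeb2 between response groups on Day 9 ran from -0.0074 to 0.039 and Cxcr3 between response groups on Day 17 ran from -0.065 to 0.052. Cxcr6 between response groups on Day 24 ran from -0.014 to 0.050 and the number of members past the threshold for responders Day 9 against Day 4 was 1 to 2. The number of members past the threshold for responders Day 17 against Day 4 was 0 to 1 and Tbx21 for responders Day 17 against Day 4 ran from -0.13 to 0.022. Zeb2 for responders Day 24 against Day 4 ran from -0.022 to 0.056 and the number of members past the threshold for responders Day 17 against Day 9 was 0 to 1. Tbx21 for non-responders Day 9 against Day 4 ran from -0.059 to 0.018 and Cx3cr1 for non-responders Day 17 against Day 4 ran from -0.082 to 0.0098. The number of members past the threshold for non-responders Day 24 against Day 17 was 1 to 2 and Cxcr3 in the difference of the changes to Day 9 ran from -0.017 to 0.11. Zeb2 in the difference of the changes to Day 17 ran from -0.025 to 0.082 and Tbx21 in the difference of the changes to Day 24 ran from -0.014 to 0.13.

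The tag series and response are partly confounded, and the series holds few mice of 1 response group each, 4 responders with 3-digit and 7 non-responders with 4-digit tags. Cxcr3 and Cxcr6 rest on medians of 87.5 and 86 counts per library, which limits small differences. Every mouse was treated and carried a tumor, so that treatment, tumor growth and repeated bleeding cannot be told apart in the changes over time.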
